A study of Mus musculus with 6 samples.

Results

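The amino acid transporters examined here were 9 solute carrier genes taken by name (SLC7A1, SLC7A3, SLC7A5, SLC7A11, SLC3A2, SLC38A1, SLC38A2, SLC1A4 and SLC1A5, written below with their mouse symbols). A probe was included if its target name in the array data, ignoring case, was one of these symbols, and each probe was kept separate. This gave 20 of the 45281 probes on the array, for 8 of the 9 genes (of 30854 target names in all), and *Slc7a5* was not analysed here. The probes were measured in myotubes formed from C2C12 cells, a mouse myoblast line that fuses when serum is lowered. Myoblasts received 60 nM of scramble siRNA (n = 3) or of an siRNA against *Dj1* (n = 3), were switched to medium with 2% horse serum after 48 h, and were collected 96 h later for total RNA. The 6 samples were hybridized to 6 arrays of the same Illumina chip. A probe was called detected on an array when its detection p was under 0.05, which held for 37.5, 38.4 and 40.1% of all probes on the scramble arrays and for 41.3, 41.6 and 40.7% on the DJ-1 siRNA arrays.

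These transporters set which amino acids a muscle cell can take up and exchange. *Slc3a2* encodes a glycoprotein heavy chain that carries no substrate by itself but brings light chains of the Slc7 family to the plasma membrane, among them the leucine exchanger *Slc7a5* and the cystine-glutamate exchanger *Slc7a11*. *Slc38a1* and *Slc38a2* take up glutamine and other small neutral amino acids with sodium, *Slc1a4* and *Slc1a5* exchange neutral amino acids such as alanine, serine, cysteine and glutamine, and *Slc7a1* and *Slc7a3* carry arginine and lysine. Several of these genes are known targets of the transcription factor ATF4, which is translated when amino acids run short, and leucine brought in by such carriers activates the growth kinase complex mTORC1.

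*Dj1*, listed as *Park7*, was examined first. Its probe read -1.16 as log2 fold change (standard error 0.14, adjusted p = 0.00344), so that 44.7% of the scramble signal was left in the cells called *Dj1* knockdown myotubes below. This adjusted p came from limma's moderated test over 17890 probes detected on at least 3 of the 6 arrays. Later ones did too, unless another test or setting is named, with 0.05 as the threshold for a call.

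The 2 transporter probes called in *Dj1* knockdown myotubes went in opposite directions. Of the 20 probes, 4 were tested (20%), for *Slc3a2*, *Slc38a2* and *Slc1a4*. The *Slc3a2* probe rose, 1 *Slc38a2* probe fell, and the other *Slc38a2* probe and the *Slc1a4* probe did not pass the threshold. The 2 called probes compare with a background of 30.1% called among all tested probes, 16.5% higher and 13.6% lower, and with 4 probes tested the share says nothing particular about these genes. The median log2 fold change was -0.02 over the 4 probes and 0.05 over all tested probes. In RNA from whole cultures, fewer cells of a type and less RNA per cell cannot be told apart.

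*Slc3a2*, the heavy chain, had 1 probe (ILMN_2595359). Its deposited signal was 473, 402 and 312 with scramble siRNA and 572, 513 and 587 with DJ-1 siRNA, with a standard error over beads between 17.5 and 49.3. All 3 knockdown arrays thus lay above all 3 scramble arrays, and the scramble arrays differed among themselves by more than their bead error. The normalized log2 signal was 7.94 ± 0.38 (SD, n = 3) with scramble siRNA and 8.78 ± 0.32 (SD, n = 3) after knockdown. The difference was 0.83 (standard error 0.24, 95% confidence interval 0.27 to 1.40, adjusted p = 0.0391), which is 1.78-fold higher. A two-sided exact permutation test of the 3 arrays against 3 gave p = 0.1, the smallest it allows. The call was close to the threshold, and it was lost without scramble replicate 2 (0.84, adjusted p = 0.0874), scramble replicate 3 (0.64, adjusted p = 0.0888), DJ-1 siRNA replicate 1 (0.82, adjusted p = 0.107) or DJ-1 siRNA replicate 3 (0.68, adjusted p = 0.123), and also with no filter on dim probes (adjusted p = 0.0842), an unmoderated test (adjusted p = 0.117) or with the replicate number as a block (adjusted p = 0.0689). Over all 14 alternative settings the log2 fold change of *Slc3a2* stayed positive, between 0.56 and 1.02.

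*Slc38a2*, the sodium-coupled carrier of small neutral amino acids, had 3 probes that did not behave alike. The signal of ILMN_2955671 was 5905, 5443 and 5823 with scramble siRNA and 4242, 4757 and 4091 with DJ-1 siRNA, with a standard error over beads of 158 to 341. Every knockdown array was below every scramble array. Its log2 fold change was -0.43 (standard error 0.10, 95% confidence interval -0.67 to -0.19, adjusted p = 0.0211), leaving 74.2% of the scramble signal. The fall was not called when background-corrected arrays were aligned at their 75th percentile and not by quantiles (-0.30, adjusted p = 0.0852), whereas it was called with that alignment on uncorrected signals (-0.34, adjusted p = 0.0106). It was also not called without scramble replicate 3 (-0.40, adjusted p = 0.0591) or without DJ-1 siRNA replicate 1 (-0.40, adjusted p = 0.0855), replicate 2 (-0.42, adjusted p = 0.0581) or replicate 3 (-0.46, adjusted p = 0.0519), with a range of -0.49 to -0.30 over the 14 alternatives.

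The probe ILMN_1244123 of *Slc38a2* had signals of 3706, 3037 and 2848 with scramble siRNA and 3993, 3876 and 3046 with DJ-1 siRNA. The groups overlapped here, since scramble replicate 1 was above DJ-1 siRNA replicate 3. The log2 fold change was 0.17 (standard error 0.13, 95% confidence interval -0.15 to 0.48, adjusted p = 0.372), and the probe was called in 0 of the 14 alternatives (0.10 to 0.30). The change thus differed by 0.60 on the log2 scale between these *Slc38a2* probes, and the difference within each array did not overlap between the groups. The two-sided exact permutation test of this difference gave p = 0.1 (adjusted p = 0.15 over 3 pairs of probes, which were chosen after the data had been seen). The remaining probe of *Slc38a2*, ILMN_2721692, was detected only on DJ-1 siRNA replicate 1 (deposited detection p of 0.0214) and was not tested. Which transcripts of the gene each probe matches was not analysed here, so no direction is given for *Slc38a2* as a gene.

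*Slc1a4*, a neutral amino acid exchanger, had 1 probe (ILMN_2888552), with signals of 1124, 1077 and 1169 with scramble siRNA and 1004, 1095 and 808 with DJ-1 siRNA. DJ-1 siRNA replicate 2 lay within the range of the scramble arrays before normalization, whereas the normalized log2 signals did not overlap, at 9.91, 9.82 and 10.07 with scramble siRNA and 9.78, 9.76 and 9.63 after knockdown. The log2 fold change of *Slc1a4* was -0.21 (standard error 0.11, 95% confidence interval -0.47 to 0.05, adjusted p = 0.192) and did not pass the threshold. Groups that did not overlap were found for 3 of the 4 tested transporter probes and for 48.5% of all tested probes.

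**Figure D1:**
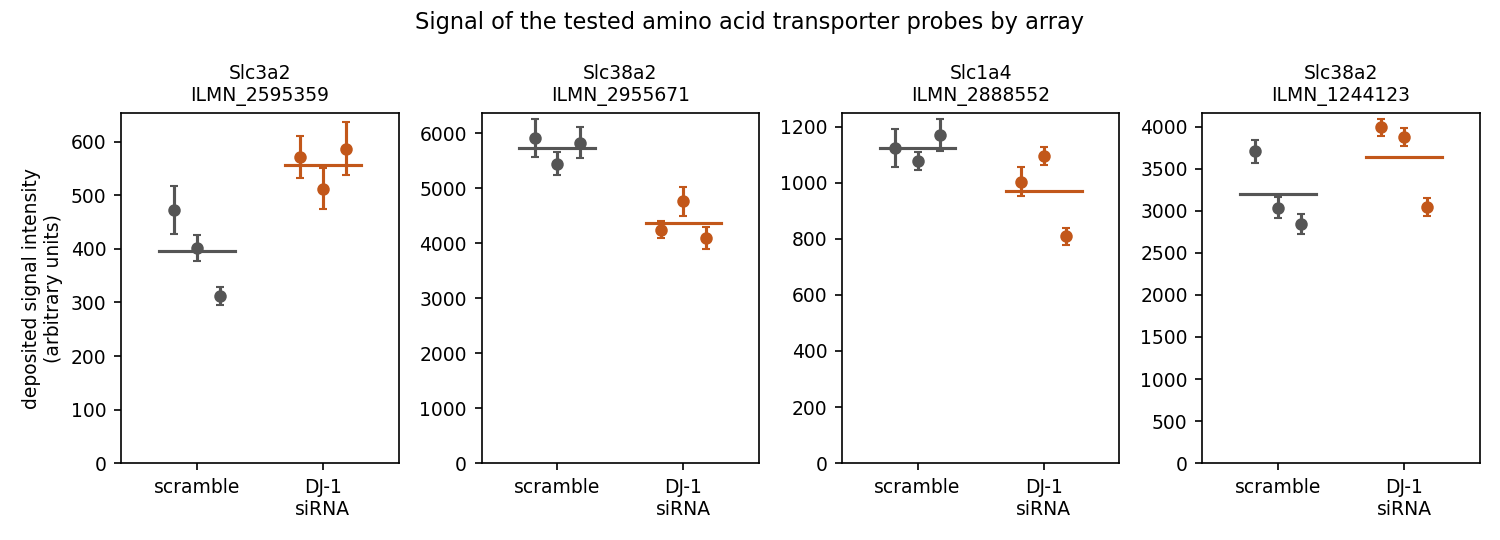
Deposited signal intensity (vertical axes from 0, arbitrary units, a scale of its own for each probe) of the 4 tested transporter probes on the 3 scramble arrays (grey) and 3 DJ-1 siRNA arrays (orange), with points for arrays, vertical bars for the standard error over beads and horizontal lines for group means. The groups are apart for *Slc3a2*, at 312 to 473 against 513 to 587, and for the *Slc38a2* probe ILMN_2955671, at 5443 to 5905 against 4091 to 4757, and they overlap for the other probes.

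The other 16 probes, of 6 genes, were not tested because they were detected on fewer than 3 arrays. Their signals ran from 120 to 185 with a median of 149, while the lowest signal of any detected probe was between 162 and 187 depending on the array. Among these probes 12 were detected on 0 of the 6 arrays and 4 on 1 array each. The exchangers that pair with glutamine and cystine metabolism were at background throughout: all 5 probes of *Slc7a11* (132 to 169) and all 5 of *Slc1a5* (127 to 167) were never detected. The same held for both probes of the arginine carrier *Slc7a1* (120 to 168). The probe of *Slc38a1* had signals of 152 to 181 and was detected on DJ-1 siRNA replicate 2 only (deposited detection p of 0.031).

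Both probes of the arginine carrier *Slc7a3* were detected on 1 array each. Its probe ILMN_1212906 read 147, 166 and 145 with scramble siRNA and 170, 173 and 162 with DJ-1 siRNA, and only the last of these passed (deposited detection p of 0.0492). Its probe ILMN_1257987 read 185, 173 and 141 with scramble siRNA and 185, 171 and 158 after knockdown, and only the 185 of DJ-1 siRNA replicate 1 passed (deposited detection p of 0.00748). In all, 0 of 48 values on scramble arrays and 4 of 48 on DJ-1 siRNA arrays (8.33%) were detected for the 16 probes. Over both groups this was 4 of 96 values (4.17%), and a detection threshold of 0.05 passes about that share of pure background. No gain of detection after knockdown is therefore read from these counts. Bead noise, as the median standard error of an array, was 11.3, 8.30 and 8.66 with scramble siRNA and 7.17, 6.36 and 5.88 with DJ-1 siRNA, and its part in these detections was not tested. A level below detection is a limit of these probes on this array and does not show that the mRNA was absent.

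**Figure D2:**
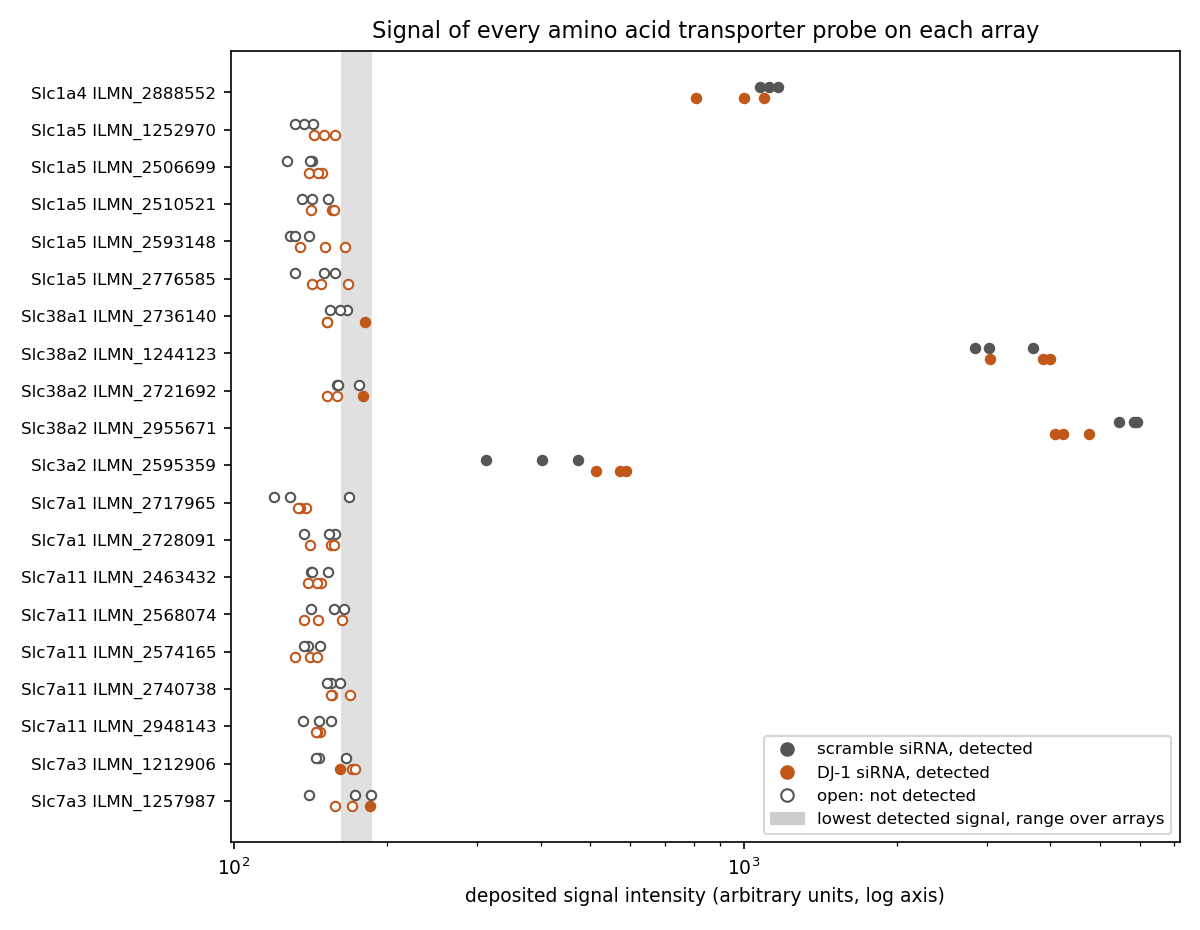
Deposited signal intensity (horizontal log axis, arbitrary units) of the 20 transporter probes on each array, grey for scramble siRNA and orange for DJ-1 siRNA, filled where the probe was detected, with a grey band for the lowest detected signal of the arrays (162 to 187). The 4 tested probes are far above the band on every array and the other 16 lie in or below it, and since probes differ in brightness the levels of different probes cannot be compared.

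The promoters of the transporters were searched for the core of the C/EBP-ATF response element, through which ATF4 acts on amino acid transporter genes. The letters TGATGNAA were sought on both strands in windows from 250 bases before to 50 bases after the annotated start, taken from RefSeq for the mouse build GRCm38.p6. Windows were found for 5 of the genes (6 windows, as *Slc7a1* has 2). Matches were found in 2 of the 6 windows, those of 2 genes, against 3.97% of the 32851 windows of all genes. The stretches that hold the matches are shown because they are the only ones found, in *Slc1a4*, which was tested, and in *Slc7a11*, which was at background. Both are written 5′ to 3′ on the strand of the gene, which is the minus strand, with matches in either orientation in capitals.
*Slc7a11*, chr3:50443633-50443699: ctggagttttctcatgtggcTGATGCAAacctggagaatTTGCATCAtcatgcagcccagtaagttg
*Slc1a4*, chr11:20332710-20332737: cctccagcgtgcctcctgcgTTGCATCA
*Slc7a11* thus had 2 matches, in opposite orientations, which began 66 and 47 bases before the start, and its mRNA was below detection on all 6 arrays. The match of *Slc1a4* spanned the start itself, from 4 bases before to 4 bases after it. The windows of *Slc3a2*, *Slc38a2* and *Slc7a1* held no match to these letters. Sequence outside the windows, such as introns further downstream, was not searched, so these genes may hold the element elsewhere. A match describes the sequence only, and binding was not measured.

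The Slc7 light chains that partner *Slc3a2* were described next, from a list of 46 other amino acid transporters. *Slc7a6*, which exchanges arginine for neutral amino acids, fell by 0.72 in log2 units (standard error 0.11, adjusted p = 0.00625), a call kept in all 14 alternatives (-0.78 to -0.38). *Slc7a7*, a light chain of the same kind, was detected on 1 scramble and 2 DJ-1 siRNA arrays with its tested probe, and no change was called. The 2 probes of *Slc7a8* and the probe of *Slc7a10* were never detected. The change of *Slc3a2* exceeded that of *Slc7a6* by 1.56 on the log2 scale (0.94 to 1.78 over the 9 alternatives run for this difference). The groups did not overlap (two-sided exact permutation p = 0.1, adjusted p = 0.15). For the remaining pair of *Slc3a2* and *Slc7a7* no difference is given, because the *Slc7a7* probe was not detected on 3 of the 6 arrays. In these arrays the heavy chain and *Slc7a6* were therefore called in opposite directions. The permutation test of their difference cannot give a p-value under 0.1 with 3 arrays per group.

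Of the 46 other transporters 44 had a probe, and of their 76 probes 24 were tested and 38 were never detected. Among the tested probes 3 were higher and 7 were lower (41.7% called, against 30.1% of all tested probes), with a median log2 fold change of 0.05. The glutamate transporter *Slc1a3* had signals of 2029, 3016 and 2188 with scramble siRNA and 477, 782 and 328 with DJ-1 siRNA. These groups lay far apart, and a log2 fold change at -2.62 (standard error 0.33, adjusted p = 0.00383) left 16.2% of the scramble signal. It was called in all 14 alternatives, between -2.95 and -2.21. The arginine and lysine carrier *Slc7a2* fell on 1 probe (380, 281 and 355 against 251, 224 and 199), by 1.05 in log2 units (standard error 0.26, adjusted p = 0.0249), or by 0.53 without background correction. This call was lost in 6 of the 14 alternatives, with no filter (adjusted p = 0.0536), an unmoderated test (adjusted p = 0.0898) or without scramble replicate 1 (-0.92), scramble replicate 3 (-0.92), DJ-1 siRNA replicate 2 (-0.95) or DJ-1 siRNA replicate 3 (-0.98), and the 4 other probes of *Slc7a2* were not tested.

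The other called falls were on probes of *Slc6a19*, *Slc38a5*, *Slc66a1* and *Slc6a6*. *Slc6a19*, a sodium-coupled carrier of neutral amino acids (log2 fold change -0.97, adjusted p = 0.0181), was detected on 2 of the 3 DJ-1 siRNA arrays and was at -0.35 and -0.34 without background correction. Its call was lost with an unmoderated test (adjusted p = 0.0705) or without DJ-1 siRNA replicate 1 (-0.79, adjusted p = 0.0571). *Slc38a5*, a glutamine carrier, had signals of 207, 192 and 174 with scramble siRNA and 161, 162 and 145 with DJ-1 siRNA. It was detected on all scramble arrays and on 0 of the DJ-1 siRNA arrays, so that it entered the test through the scramble group alone. It was called lower (adjusted p = 0.00953), also with no filter (adjusted p = 0.0205), and no fold is given because the fitted log2 fold change ran from -0.94 to -0.24 over the alternatives. *Slc66a1*, a lysosomal carrier of cationic amino acids, was lower by 0.56 in log2 units (adjusted p = 0.0214, and -0.27 and -0.26 without background correction). Its call was lost with an unmoderated test (adjusted p = 0.0547) or without scramble replicate 2 (-0.48) or 3 (-0.56) or DJ-1 siRNA replicate 1 (-0.58) or 3 (-0.48). The taurine transporter *Slc6a6* fell by 0.33 on the log2 scale on ILMN_2641467 (adjusted p = 0.0388), called in 5 of the 14 alternatives (-0.36 to -0.16) and, of the left-out arrays, only without scramble replicate 1, while ILMN_1252493 had a log2 fold change of 1.11 that was not called (standard error 0.47, adjusted p = 0.118). The probes that rose were those of *Slc43a1*, a carrier of branched-chain and aromatic amino acids, and *Slc7a4*. *Slc43a1* was higher by 0.52 on ILMN_1229667 (adjusted p = 0.0363), called in 4 of the 14 alternatives (0.22 to 0.66) and, of the left-out arrays, only without scramble replicate 1. Its probe ILMN_2495194 was also called, but it entered the test through the DJ-1 siRNA group alone, being detected on 0 scramble arrays, and no size is given. It was called with no filter (adjusted p = 0.0486), but not with an unmoderated test (adjusted p = 0.0739), with uncorrected arrays aligned at their 75th percentile (adjusted p = 0.0534), or without DJ-1 siRNA replicate 1 (adjusted p = 0.0624) or 3 (adjusted p = 0.0527). *Slc7a4* was higher by 0.41 (adjusted p = 0.0423), called in 4 of the 14 alternatives (0.24 to 0.48) and, of the left-out arrays, only without scramble replicate 2. The number of called probes was 5 without scramble replicate 3, 4 without DJ-1 siRNA replicate 1, 6 without replicate 2 and 4 without replicate 3. Over the whole array the called probes also fell in these fits, from 5387 to 3969, 2559, 4045 and 2712. Whether the loss differed between transporters and the array was not tested.

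**Figure D3:**
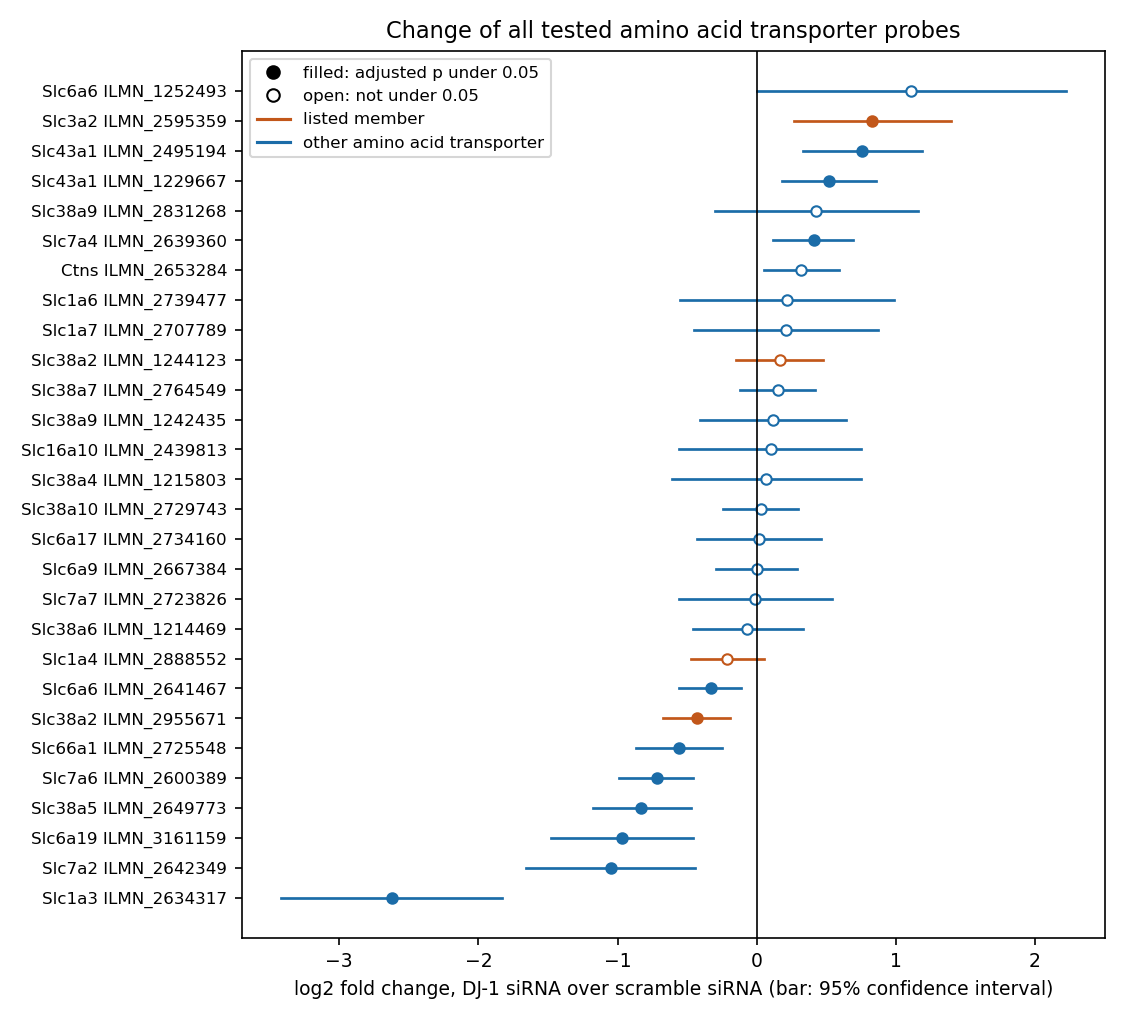
Log2 fold change (horizontal axis, DJ-1 siRNA over scramble siRNA) with its 95% confidence interval for the 4 tested probes of the named transporters (orange) and the 24 tested probes of other amino acid transporters (blue), filled where the adjusted p was under 0.05. *Slc1a3* lies lowest at -2.62, the called transporters lie on both sides of 0, and the fitted values of *Slc38a5* and of the *Slc43a1* probe ILMN_2495194 are uncertain because they were not detected in 1 group.

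The regulators of the amino acid response include the kinases that phosphorylate eIF2 and the factor ATF4. Of 18 tested probes 1 was higher, 6 were lower and 11 were not called (38.9% called, against 30.1% of all tested probes), with a median log2 fold change of -0.18. *Atf4* fell on both probes, by 0.74 (standard error 0.15, adjusted p = 0.0125) and by 0.48 (standard error 0.10, adjusted p = 0.0137) in log2 units. Without DJ-1 siRNA replicate 1 neither *Atf4* probe was called (-0.66, adjusted p = 0.0512, and -0.49, adjusted p = 0.0539). The probe ILMN_2642681 of *Atf4* read 10425, 10202 and 10124 with scramble siRNA and 7716, 8879 and 6424 with DJ-1 siRNA. *Chac1*, a glutathione-degrading enzyme induced by ATF4, fell by 1.08 (adjusted p = 0.0031) and the kinase gene *Eif2ak2* by 1.33 (adjusted p = 0.00356). The fall of *Eif2ak2* does not stand for the other eIF2 kinases, since the probes of *Eif2ak3* and *Eif2ak4* were not tested. *Cebpg*, which encodes a partner of ATF4, was higher on a probe detected on 2 of the 3 scramble arrays (0.74, adjusted p = 0.0192, and 0.23 and 0.25 without background correction), while its other tested probe was not called (0.28, adjusted p = 0.212). The call of *Cebpg* was lost with an unmoderated test (adjusted p = 0.0646) or without DJ-1 siRNA replicate 1 (0.67, adjusted p = 0.0721) or 3 (0.71, adjusted p = 0.071). Among other targets of ATF4 outside transport, *Atf5* was called lower (-0.68, adjusted p = 0.00721) and *Eif4ebp1* higher (0.57, adjusted p = 0.0174), and *Ddit3*, *Trib3* and *Asns* did not pass the threshold. *Atf5* was called in all 14 alternatives, and *Eif4ebp1* was not called without scramble replicate 2 (0.51, adjusted p = 0.0517) or DJ-1 siRNA replicate 1 (0.58, adjusted p = 0.0612) or 3 (0.49, adjusted p = 0.0573). *Ddit3* had log2 fold changes of 0.64 and 0.67 (adjusted p of 0.0595 and 0.068, called in 6 and 5 of the 14 alternatives, at 0.42 to 0.81 and 0.42 to 0.89). The 3 probes of *Trib3* were at -0.32, 0.50 and -0.47 (-0.46 to -0.18, 0.06 to 0.81 and -0.65 to -0.17 over the alternatives, the last called in 1 of them). The 3 probes of asparagine synthetase *Asns* were at 0.47, 0.00 and 0.33 (smallest adjusted p = 0.0741, the first called in 2 of the 14 alternatives). The number of called regulators was 3 without DJ-1 siRNA replicate 1.

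**Figure D4:**
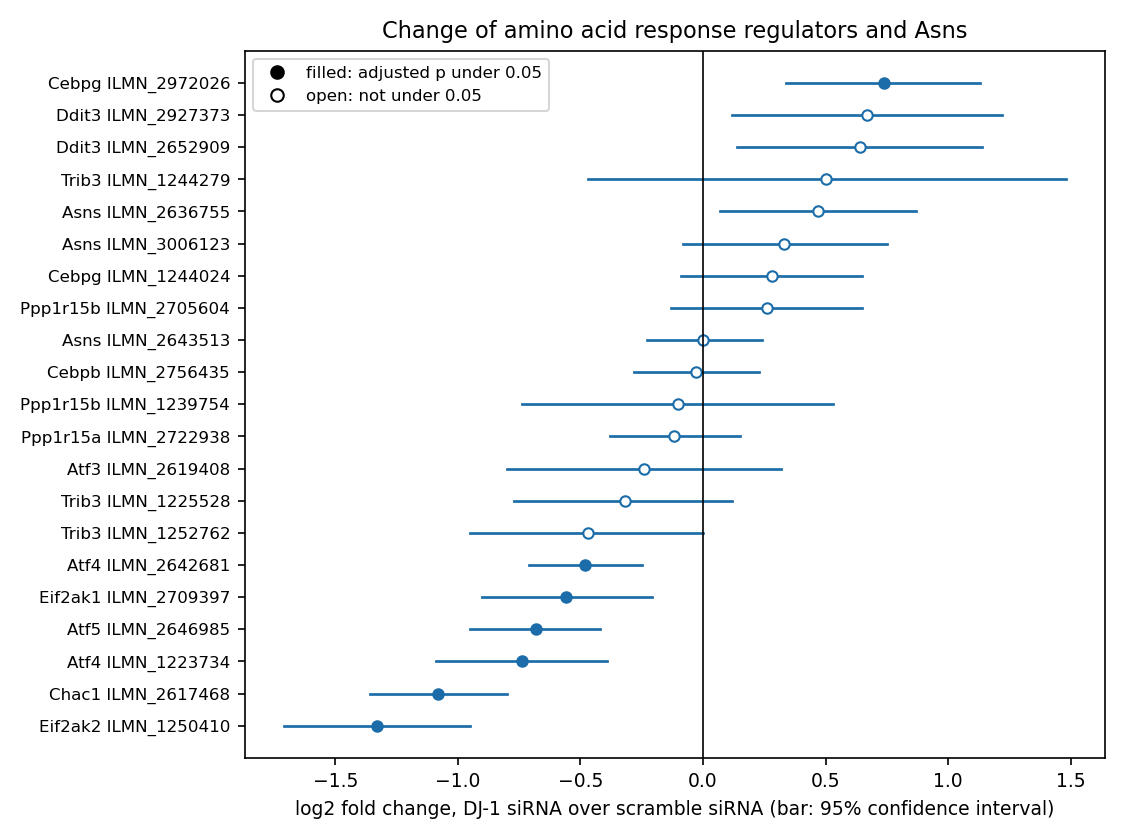
Log2 fold change (horizontal axis, DJ-1 siRNA over scramble siRNA) with its 95% confidence interval for the 18 tested probes of amino acid response regulators and the 3 of *Asns*, filled where the adjusted p was under 0.05. The *Atf4* probes, at -0.74 and -0.48, and *Chac1*, at -1.08, are among the called falls, and the probes of *Ddit3* and *Asns* are open.

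Genes that sense the transported amino acids for mTORC1 had 54 tested probes, 9 higher and 5 lower (25.9% called, against 30.1% of all tested probes, median log2 fold change 0.04). *Fnip1* on 2 of 3 tested probes (0.98, adjusted p = 0.00946 for the larger) and *Rragd* (0.97, adjusted p = 0.00372, and 0.59 and 0.57 without background correction) rose. Among called subunits of the GATOR complexes, *Seh1l* rose on 2 of 4 tested probes (0.85, adjusted p = 0.0109 for the larger) and *Sec13* (-0.61, adjusted p = 0.00893) and *Nprl3* (-0.37, adjusted p = 0.0403) fell, the last called in 6 of the 14 alternatives and, of the left-out arrays, only without scramble replicate 3. The number called was 8 and 9 without scramble replicate 2 and 3, and 4 and 5 without DJ-1 siRNA replicate 1 and 3, where the calls over the whole array were 3771, 3969, 2559 and 2712. For enzymes that use the carried amino acids (glutamine, glutamate, serine, asparagine and branched-chain metabolism), 2 of 27 probes were higher and 4 lower (22.2% called, against 30.1% of all tested probes, median 0.03). The branched-chain aminotransferase *Bcat1* was at -1.04 (adjusted p = 0.00568), *Bckdha* at 0.55 (adjusted p = 0.0301), and 1 of 2 tested probes each of *Bckdk* at -0.52 (adjusted p = 0.0182) and *Shmt2* at -0.54 (adjusted p = 0.0478). The call of *Bckdha* was lost with no filter (adjusted p = 0.0667), an unmoderated test (adjusted p = 0.0741) or without scramble replicate 2 (0.49) or 3 (0.56) or DJ-1 siRNA replicate 1 (0.54, adjusted p = 0.0945) or 3 (0.43). *Bckdk* lost its call without scramble replicate 2 (-0.50), DJ-1 siRNA replicate 1 (-0.48) or DJ-1 siRNA replicate 3 (-0.48). *Shmt2* was called in 4 of the 14 alternatives, among left-out arrays only without scramble replicate 1, and was at -0.24 and -0.23 without background correction. Here 2 probes were called without scramble replicate 2 or 3, and 1 if DJ-1 siRNA replicate 1 or 3 was dropped.

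Downstream of cystine uptake, from cysteine to glutathione and its regulation, 2 of 17 probes were higher and 4 lower (35.3% called, against 30.1% of all tested probes, median -0.27). *Gclc*, the catalytic subunit of the first enzyme of glutathione synthesis, was at -0.77 (adjusted p = 0.0076, and at -0.28 and -0.27 without background correction), and its modifier *Gclm* at -0.04 (adjusted p = 0.871) that was 0.15 without scramble replicate 2. *Srxn1* was called on 1 of 3 tested probes, which was detected on 2 of the 3 DJ-1 siRNA arrays (-1.07, adjusted p = 0.0125, and -0.37 and -0.36 without background correction). That call was lost with an unmoderated test (adjusted p = 0.0563), and the other *Srxn1* probes were at -0.48 and -0.42. The regulator *Nfe2l2* was at 0.73 (adjusted p = 0.00918). *Keap1*, also in this list, was called lower on ILMN_1258406 (-0.42, adjusted p = 0.0364) and ILMN_2993267 (-0.46, adjusted p = 0.018). Its other tested probes were at -0.31 and -0.27 and were not called. *Hmox1* was at 0.48 (adjusted p = 0.0244, and 0.32 and 0.30 without background correction). Its call was lost with no filter (adjusted p = 0.055) or without DJ-1 siRNA replicate 1 (0.50, adjusted p = 0.0771), 2 (0.50, adjusted p = 0.0575) or 3 (0.46, adjusted p = 0.0819). *Slc7a11*, the cystine carrier that feeds this pathway, was below detection throughout. The number called was 3 without DJ-1 siRNA replicate 1 or replicate 3.

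Markers of the cultures were described beside the transporters. All 20 genes of differentiated myotubes were detected, and of their 33 tested probes 2 were higher and 16 were lower (54.5% called, against 30.1% of all tested probes, median -0.38). Their summed normalized signal, whose largest term by its mean over the 6 arrays was the *Acta1* probe, was 396084, 381415 and 383064 with scramble siRNA and 313892, 327300 and 290406 with DJ-1 siRNA, with *Myh4* detected on 1 DJ-1 siRNA array and between -3.98 and -1.90 over the alternatives, *Myh1* at -2.19 and -1.93 and the 7 tested *Ttn* probes from -0.76 to 1.77 in log2 units. Their called number was 10 and 11 without DJ-1 siRNA replicate 1 and 3. The 15 myotube probes not called included *Acta1* (-0.01), *Actc1* (0.17 and 0.20), *Myog* (0.22 and -0.11), *Ckm* (-0.07) and *Myh3* (-0.17). *Mb* (-0.27 and -0.23), *Myh7* (-0.42), *Tnnc1* (-0.12), *Tnni1* (-0.10) and *Tnnt1* (-0.24) were also not called. Among markers of cycling or undifferentiated myoblasts, 0 of 12 tested probes were higher and 4 were lower by limma (33.3% called, against 30.1% of all tested probes, median 0.00, with 3 higher and 4 lower at an unadjusted p under 0.05, and 1 higher and 3 lower by an unmoderated test), with 2 called if DJ-1 siRNA replicate 1 or 3 was dropped. *Id3* was at -1.40 (-0.70 without background correction), and *Pcna*, *Id1* and 1 of 2 tested *Ccnb1* probes were each at -0.57 (*Id1* called in 6 of the 14 alternatives, and *Ccnb1* not without DJ-1 siRNA replicate 1, at -0.47, or 3, at -0.56). The probes not called included *Mki67* (0.47 and 0.20), *Top2a* (0.25 and 0.23), *Cdk1* (0.30) and the other *Ccnb1* probe (-0.31), and *Pax3* and *Pax7* were never detected. Their summed signal, with the *Cdk1* probe as largest term, was 6527, 7082 and 6527 against 5847, 6506 and 6027. Of 10 adipocyte and osteoblast markers 6 were never detected (*Adipoq*, *Cfd*, *Lep*, *Plin1*, *Runx2* and *Sp7*), and 0 of 4 tested probes were called by limma (0 higher and 1 lower at an unadjusted p under 0.05, 0 called by an unmoderated test, and 1 without DJ-1 siRNA replicate 2). Their summed signal, with a *Bglap* probe as largest term, was 664, 607 and 681 against 567, 627 and 565. It runs over 16 probes, 11 of them never detected, so that background makes up part of it. The part of these markers in the changes of *Slc3a2*, *Slc38a2* and the other transporters was not tested.

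The probes whose normalized signal followed that of *Slc3a2* most closely over the 6 arrays were those of *Synpo* (Pearson r = 0.991), of the transcript listed as 6430562A12RIK (0.991) and of *Rcan3* (0.99). Their log2 fold changes were 0.24 (adjusted p = 0.13), 0.81 (adjusted p = 0.046) and 0.51 (adjusted p = 0.0499). With 3 arrays per group these correlations hold the difference between the groups and are given as a description.

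**Figure D5:**
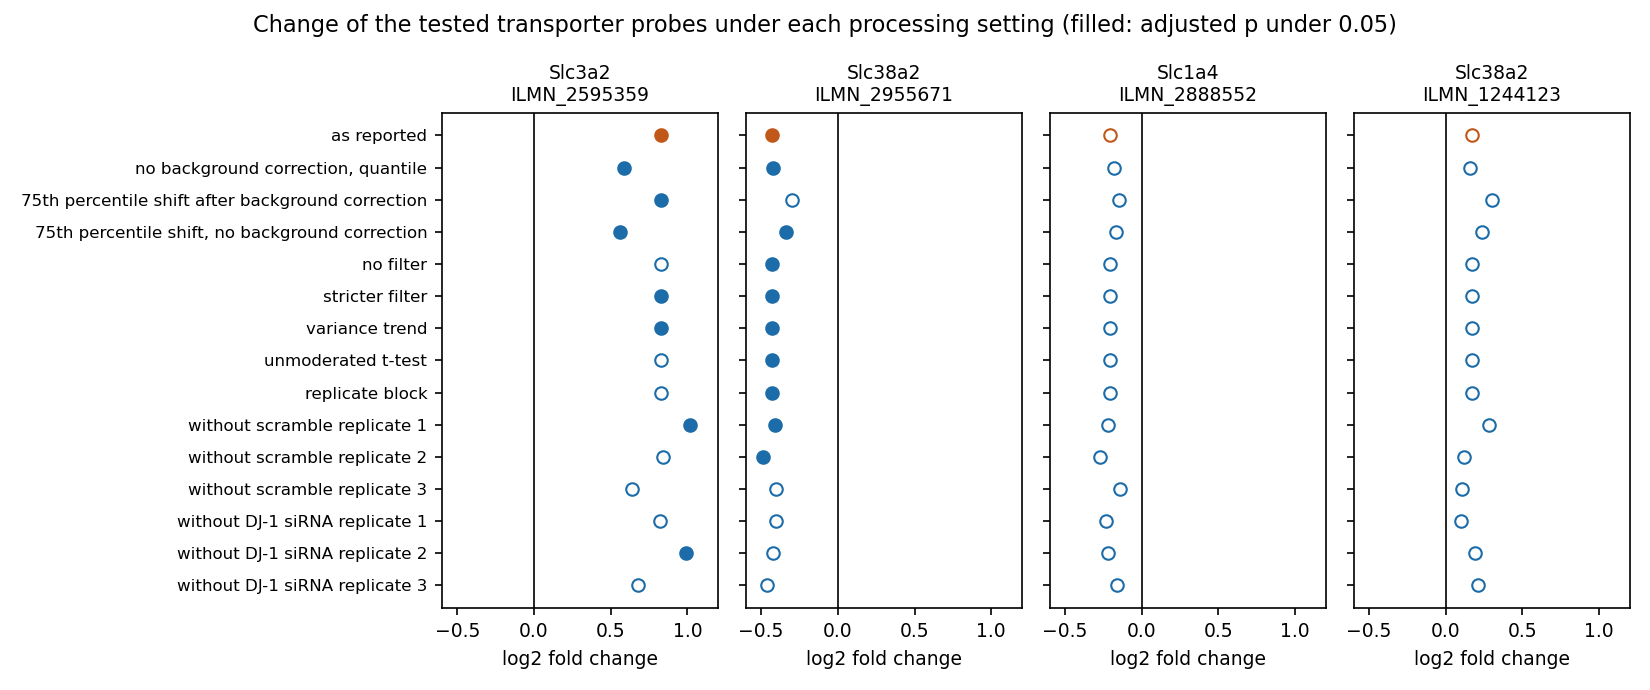
Log2 fold change (horizontal axes) of the 4 tested transporter probes as reported (orange) and under each of 14 alternative settings (blue), filled where the adjusted p was under 0.05. *Slc3a2* stays right of 0 and is filled in 7 of the alternatives, the *Slc38a2* probe ILMN_2955671 stays left of 0 and is filled in 9, and the other probes keep their side of 0 and are open throughout.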

How the data were processed

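Total RNA from the 6 samples (200 ng each) was labelled and hybridized to one Illumina Mouse BeadChip, and GenomeStudio was used by the authors for quantification. Per the file headers, the deposited values are mean signal intensity without normalization or background subtraction, its standard error over beads, a bead count and a detection p-value for each probe and array. The authors' deposited intensity standard error is in the same unit as the signal. Their bead counts had medians of 36 to 41 per array, and the number of arrays limits the precision.

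In R 4.3.3 with limma 3.58.1, signals were processed by neqc: normexp with an offset of 16, negative controls inferred from detection p, quantile normalization, log2. Probes detected (p under 0.05) on 3 or more arrays entered lmFit and eBayes, with Benjamini-Hochberg adjustment over all of them and 95% intervals. Genes were renamed through RefSeq (GRCm38.p6) by Entrez number or accession, which matched 32345 probes. Other probes kept their listed name. The labels number the replicates without saying whether they are separate cultures, so p-values measure the spread between these samples, which may be technical. The steps were tested on simulated data.

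The members and lists were chosen with earlier results of these data known. Named probes are those of *Park7*, of the 9 transporters and of *Atf4*, *Ddit3*, *Trib3*, *Asns*, *Nfe2l2* and *Gclm*, the 4 called probes of each other list with the largest change among those detected on every array of a group, and the 3 most correlated with *Slc3a2*. *Slc7a4*, *Slc7a6*, *Slc7a7*, *Slc7a8*, *Slc7a10*, *Slc6a6*, *Slc43a1*, *Slc66a1*, *Atf5*, *Eif4ebp1*, *Nprl3*, *Mki67* and *Top2a* were named after their values had been seen, and the alternatives of those called were added then. The uncalled myotube probes, *Keap1*, *Eif2ak3* and *Eif2ak4* were also named after their values had been seen, and no alternatives are given for them. Of 6 planned comparisons between pairs of transporters, 0 had both genes tested, so none was made. Alternatives changed the background step (none, with signals under 1 set to 1), the scaling (arrays aligned at their 75th percentile, on corrected and on uncorrected signals), the filter (absent, or detection p below 0.01 on each of the 6 arrays), the test (a variance trend, or no moderation), the design (replicate as block, or 1 array dropped at a time) and the unit (the mean of the probes of a gene).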

Additional observations from a re-analysis of the deposited data

How the results depend on the processing

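The fall of *Park7* was called in all 14 alternatives, as were those of *Slc1a3* and *Chac1*. All 4 tested transporter probes kept their direction in every alternative. *Slc3a2* lost its call with no filter (0.83, adjusted p = 0.0842), an unmoderated test (0.83, adjusted p = 0.117) and the replicate block (0.83, adjusted p = 0.0689, within a range of 0.00477 to 0.123), and ran from 0.64 to 1.02 with single arrays left out. The *Slc38a2* probe ILMN_2955671 lost it when corrected arrays were aligned at the 75th percentile (-0.30, adjusted p = 0.0852, range 0.000459 to 0.0855) and ran from -0.49 to -0.40 with single arrays left out. The number of called transporter probes was 1 with that scaling, no filter, an unmoderated test, the replicate block or the mean per gene, and 0 to 2 with arrays left out. The causes were not tested, beyond more probes sharing the adjustment with no filter and fewer arrays when 1 was left out.

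Across the array, 3519 probes were called with no filter (1908 higher, 1611 lower) and 2559 to 5271 with arrays left out (1387 to 2859 higher, 1172 to 2412 lower). Called probes numbered 4 for other transporters (unmoderated test, 4 to 10 with arrays left out), 7 for mTORC1 sensing (no filter, 4 to 13), 2 for metabolism (no filter or unmoderated test, 1 to 5), 11 and 9 for myotube markers (unmoderated test and mean per gene, 10 to 15) and 1 for adipocyte and osteoblast markers (stricter filter, 0 to 1). With arrays left out they were 3 to 8 for response regulators, 3 to 6 for the glutathione list and 2 to 4 for cycling markers. *Asns* (ILMN_2643513) changed sign around 0 with arrays left out (-0.04 to 0.06), as did *Gclm* (-0.18 to 0.15). The differences of change between probes, which were added after seeing the data, kept their sign in the 9 alternatives run for them.

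Samples with the same replicate number did not deviate together (correlations of 0.05, 0.05 and 0.02). These values show no pairing by number, but they cannot show whether such samples were prepared together. With the number as a block, 4350 probes were called.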
